A study of Mus musculus with 34 samples.

Results

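The mitosis genes Top2a, Mki67, Ccnb1, Cdk1, Aurkb, Bub1, Kif11, Plk1, Cenpe and Cdc20 were followed through 28 RNA sequencing libraries of mouse cells. These 10 genes were chosen by name as genes of cell division, from 29876 gene entries in the deposited table, and all 10 passed the filter on low counts in every fit. The study asked what an altered copy number of 7qF3, the mouse counterpart of human 16p11.2, does to gene expression as stem cells become neurons. Deletion cells (genotype label 129Sv df/+) lacked the region on 1 chromosome. Duplication-deletion cells (129Sv df/dp) carried a duplicated region on 1 chromosome and a deleted one on the other. Control cells (129Sv +/+) had neither change, and the strain label of all samples was C57BL/6N. Each genotype was sequenced as embryonic stem cells (ESCs), as neuronal progenitor cells of the ventral midbrain lineage (NPCs) taken on day 5, and as immature dopaminergic neurons taken on day 16, with epiblast stem cells as the step after ESCs. There were 3 ESC, 3 NPC and 2 neuron libraries with the deletion, 3, 3 and 2 with the duplication-deletion, and 3, 5 and 4 of control cells. The description label of the NPC duplication-deletion libraries named only the deletion, but the title and the genotype label gave both changes and were followed here. The labels do not say how many cell lines stand behind a genotype, or whether replicates were separate cultures, so p-values measure the spread between these libraries, which may be technical.

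Cells enter mitosis when the kinase Cdk1, bound to cyclin B1 (Ccnb1), is switched on, and they leave it when Cdc20 directs the anaphase-promoting complex to destroy cyclin B1. Between these steps Plk1 and Aurkb phosphorylate spindle and chromosome proteins, Kif11 pushes the spindle poles apart, Cenpe and Bub1 act at the kinetochore, where microtubules grip the chromosome, and Top2a untangles DNA. Mki67 coats mitotic chromosomes and is the classic marker of dividing cells. Neurons leave the cell cycle for good, while stem and progenitor cells keep dividing.

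Total counts per library ran from 5578151 to 78814037, and the most abundant entry made up 19.6% to 38.8% of a library. The lowest total was that of ESC deletion replicate 3, whose most abundant entry was Lars2, while in every other library it was GU332589. Levels below are in CPM, counts relative to the library total, scaled by edgeR's TMM factors over all 28 libraries. They compare 1 gene between libraries and not 1 gene with another, since no transcript lengths were used. The stage labels were checked against marker genes. The summed level of 5 pluripotent cell markers was 800 to 1122 CPM in ESC libraries, and 2.16 to 5.27 CPM in the NPC and neuron libraries. The 8 neuron markers summed to 1727 to 3576 CPM in neuron libraries, 500 to 1897 CPM in NPC libraries and 172 to 226 CPM in ESC libraries. Neuron libraries also held 747 to 1175 CPM of 8 neural progenitor markers, against 1642 to 2804 CPM in NPC libraries. Their 5 astrocyte markers summed to 253 to 677 CPM, against 19.4 to 119 CPM in NPC libraries. No list held markers of dopaminergic cells alone, so that part of the label was not checked.

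No member lies in 7qF3. On the mm9 build, in the positions of the authors' deposited table, Plk1 spans 129276555 to 129313389 and Mki67 spans 142881471 to 142908062 of chromosome 7. Kif22, a mitotic kinesin gene of the 7qF3 interval, spans 134171245 to 134185934, so Plk1 lies 4.86 Mb and Mki67 8.70 Mb away from it. Top2a and Aurkb are on chromosome 11, and the other members are on chromosomes 2 (Bub1), 3 (Cenpe), 4 (Cdc20), 10 (Cdk1), 13 (Ccnb1) and 19 (Kif11).

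Promoters of genes that peak in mitosis are known for a cell cycle genes homology region, TTTGAA or TTCGAA, and for CCAAT boxes bound by NF-Y. RefSeq promoters on GRCm38.p6, 250 bases before to 50 bases after the start site, were matched by symbol for 9 of the 10 members; Aurkb was not matched. Both strands were searched, and no 2 matches overlapped in these promoters. CCAAT was found in 9 of 9, against 37.4% of 32851 mouse promoters. TTTGAA was found in 6 of 9 (17.9% of all promoters) and TTCGAA in 2 of 9 (1.56%). Either of these stood together with CCAAT in 7 of 9, against 7.52% of all promoters. The 4 promoters below are shown because they span that range. Cdk1, Mki67 and Top2a hold both kinds of motif, and Ccnb1 holds CCAAT alone. In this order they are on the minus strand at chr10:69352863-69353162, chr7:135716330-135716629, chr11:99024140-99024439 and chr13:100786437-100786736. Capitals mark these motifs. CCAAT on the other strand reads ATTGG. In the same way TTTGAA reads TTCAAA, while TTCGAA reads the same on both strands. These coordinates are on another build than the mm9 positions above.
Cdk1: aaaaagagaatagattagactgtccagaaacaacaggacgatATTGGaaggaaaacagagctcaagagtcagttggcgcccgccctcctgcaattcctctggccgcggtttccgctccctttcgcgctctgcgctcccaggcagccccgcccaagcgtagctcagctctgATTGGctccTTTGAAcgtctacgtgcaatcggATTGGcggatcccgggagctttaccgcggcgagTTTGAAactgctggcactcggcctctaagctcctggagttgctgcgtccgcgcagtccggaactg
Mki67: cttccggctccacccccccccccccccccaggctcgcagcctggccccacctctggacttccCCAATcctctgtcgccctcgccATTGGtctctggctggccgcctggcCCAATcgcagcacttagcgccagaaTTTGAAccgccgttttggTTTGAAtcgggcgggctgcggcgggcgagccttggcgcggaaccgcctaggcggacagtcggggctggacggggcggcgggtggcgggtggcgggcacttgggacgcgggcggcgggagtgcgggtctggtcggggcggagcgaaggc
Top2a: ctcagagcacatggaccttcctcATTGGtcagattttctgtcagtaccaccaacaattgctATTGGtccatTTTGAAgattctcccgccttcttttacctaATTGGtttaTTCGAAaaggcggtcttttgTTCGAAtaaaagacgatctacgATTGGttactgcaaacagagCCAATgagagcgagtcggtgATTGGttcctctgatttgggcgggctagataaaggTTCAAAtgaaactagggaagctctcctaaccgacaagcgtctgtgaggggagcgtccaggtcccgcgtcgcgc
Ccnb1: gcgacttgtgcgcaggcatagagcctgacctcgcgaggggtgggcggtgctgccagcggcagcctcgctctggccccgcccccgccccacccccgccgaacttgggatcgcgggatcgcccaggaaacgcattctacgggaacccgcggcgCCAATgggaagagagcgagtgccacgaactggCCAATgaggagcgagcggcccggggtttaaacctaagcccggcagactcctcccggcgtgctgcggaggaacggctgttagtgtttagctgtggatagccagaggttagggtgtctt
The window of Cdk1 holds 2 copies of TTTGAA and 3 of CCAAT, and that of Top2a holds 2 copies of each homology form and 6 of CCAAT. A match is a description of the letters and not a measured binding site.

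All 10 members fell in control neurons relative to control NPCs, by 10.8-fold to 26.2-fold in the fit. They were also lower in control neurons than in control ESCs, by 15.1-fold to 42.1-fold. The median log2 fold change between neurons and NPCs was -4.20 over the members and 0.10 over all genes tested, of which 20.5% were lower. Between neurons and ESCs, 27.6% of genes were lower. In bulk RNA, fewer dividing cells and less of these RNAs per cell cannot be told apart.

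Cdk1, the kinase that starts mitosis, was at 4.87, 5.00, 5.15 and 7.42 CPM in the 4 control neuron libraries, against 63.2, 73.4, 61.9, 51.2 and 84.5 CPM in the 5 control NPC libraries. Its cyclin partner Ccnb1 was at 5.37, 4.00, 5.98 and 8.97 CPM in neurons, against 178, 209, 151, 143 and 131 CPM in NPCs. The neuron and NPC libraries do not overlap for either gene. Ccnb1 fell by 4.71 ± 0.28 on the log2 scale (SE; adjusted p = 5.4e-08), the largest estimate among the members. Cdk1 fell by 3.55 ± 0.22 (adjusted p = 6.0e-08).

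The mitotic kinases showed the lowest counts. Plk1, which drives spindle assembly and mitotic exit, was at 2.08, 2.80, 2.66 and 2.54 CPM in control neurons, against 47.1, 24.3, 45.4, 58.0 and 30.8 CPM in control NPCs. Aurkb, the kinase of the chromosomal passenger complex that corrects faulty attachments, was at 1.01, 1.02, 3.12 and 3.62 CPM in neurons, against 28.4, 19.8, 31.0, 20.1 and 21.0 CPM in NPCs. These neuron levels rest on 97 to 190 counts of Plk1 and 47 to 271 counts of Aurkb in a library. Plk1 fell by 4.00 ± 0.28 (SE; adjusted p = 2.0e-07). Aurkb fell by 3.43 ± 0.41 (adjusted p = 1.7e-05), the smallest estimate and the largest SE of the 10 members.

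Among the genes of chromosome structure, Top2a was at 44.3, 47.1, 35.1 and 51.4 CPM in control neurons, against 943, 787, 785, 807 and 820 CPM in control NPCs. Mki67 was at 100.2, 109, 44.0 and 55.8 CPM in neurons, against 1743, 1547, 1462, 1640 and 1249 CPM in NPCs. Neuron libraries 3 and 4 were lower than libraries 1 and 2 for Mki67. Top2a fell by 4.19 ± 0.22 (SE; adjusted p = 2.7e-08). Mki67 fell by 4.28 ± 0.33 (adjusted p = 4.1e-07). Kif11, the motor that separates spindle poles, was at 7.01 to 11.9 CPM in neurons and 159 to 221 CPM in NPCs, and fell by 4.21 ± 0.23 (adjusted p = 2.7e-08).

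At the kinetochore, Bub1, a kinase of the spindle checkpoint, was at 4.16, 4.27, 2.81 and 4.70 CPM in control neurons, against 106.9, 96.9, 81.8, 76.7 and 96.4 CPM in control NPCs. Cenpe, the kinesin that carries chromosomes to the spindle equator, was at 6.37 to 11.03 CPM in neurons and 117 to 241 CPM in NPCs. Bub1 fell by 4.497 ± 0.22 (SE; adjusted p = 2.7e-08). Cenpe fell by 4.26 ± 0.27 (adjusted p = 8.8e-08). Cdc20, the activator of the anaphase-promoting complex, was at 2.32, 2.78, 3.89 and 5.30 CPM in neurons, against 56.9, 50.1, 71.7, 41.3 and 47.9 CPM in NPCs, and fell by 3.88 ± 0.29 (adjusted p = 3.5e-07). For every member the highest neuron library was below the lowest NPC library.

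All 10 members also fell in both mutant genotypes. In neurons against NPCs, 10 of 10 members were lower with the deletion, where 9.39% of all genes were lower, and 10 of 10 with the duplication-deletion, where 6.95% were lower. In neurons against ESCs, 10 of 10 were lower in each of these genotypes, with 19.5% of all genes lower in deletion cells and 19.9% in duplication-deletion cells. The members' median log2 fold change between neurons and NPCs was -4.20 in deletion cells, -3.98 in duplication-deletion cells and -4.20 in control cells. Mutant neuron groups held 2 libraries each, and their estimates had SEs of 0.39 to 0.70 (deletion) and 0.31 to 0.56 (duplication-deletion). The highest adjusted p among duplication-deletion cells was that of Plk1, 0.0059, with a log2 fold change of -3.31 ± 0.56. Without neuron duplication-deletion replicate 2 that Plk1 estimate was -3.03, with an adjusted p of 0.0635.

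**Figure D1:**
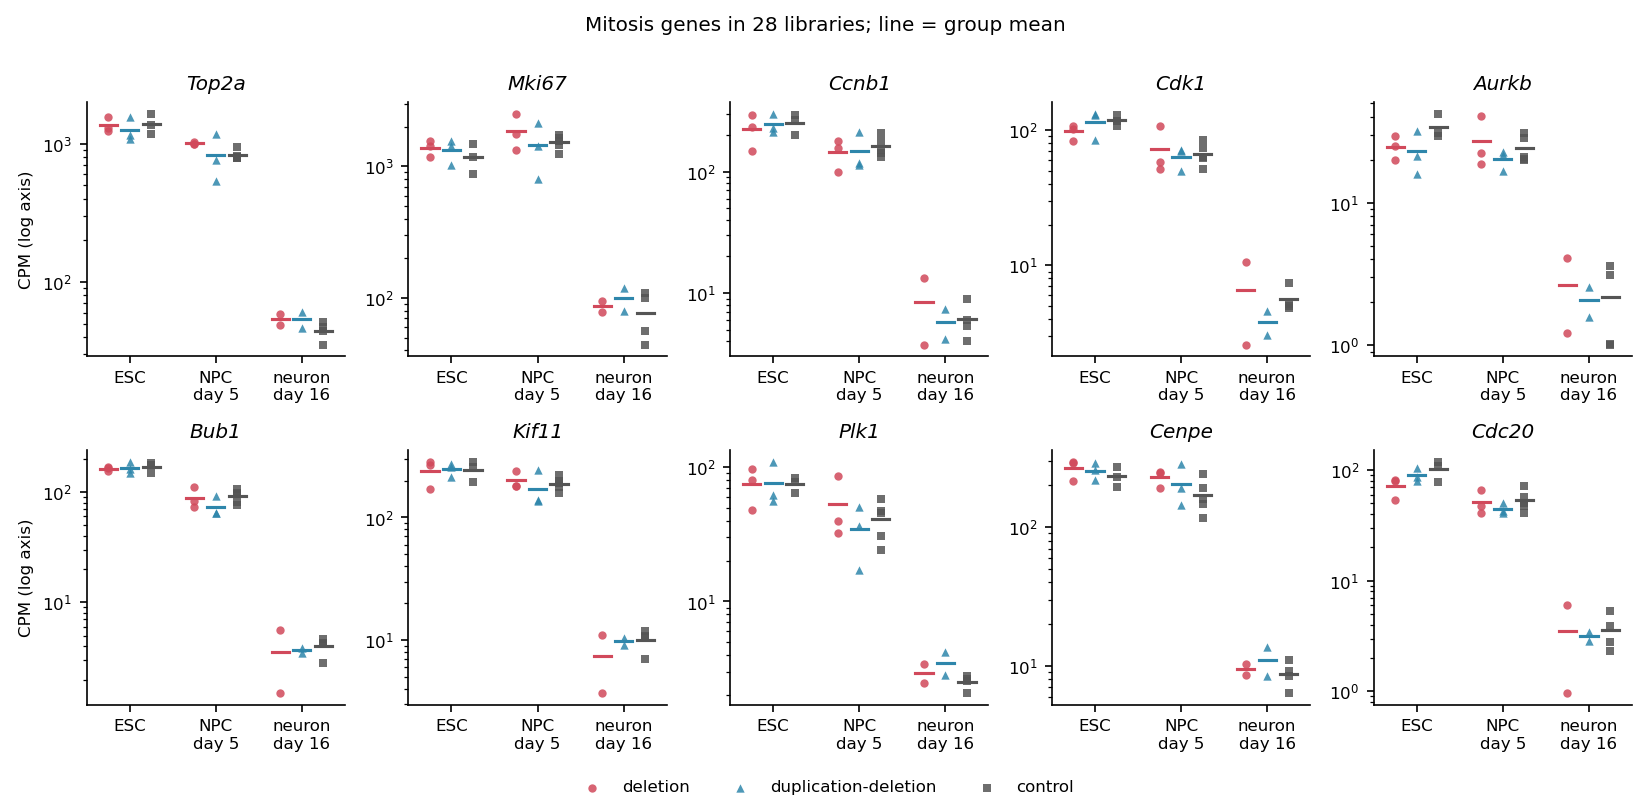
Each panel plots 1 mitosis gene in CPM on a log axis, in ESCs, NPCs of day 5 and neurons of day 16. Points are libraries (circles deletion, triangles duplication-deletion, squares control) and lines are group means. In all 10 panels every neuron library lies below every NPC and ESC library.

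In control NPCs relative to control ESCs, 5 of 10 members were lower, where 20.5% of all genes tested were lower, and 0 were higher. Bub1 fell by 0.90 ± 0.19 (SE; adjusted p = 0.0021), Cdk1 by 0.83 ± 0.20 (0.0049), Top2a by 0.77 ± 0.20 (0.0063), Cdc20 by 0.93 ± 0.27 (0.012) and Plk1 by 0.88 ± 0.25 (0.0128). Bub1 was at 76.7 to 106.9 CPM in the 5 NPC libraries, against 149, 184 and 176 CPM in the 3 ESC libraries, and Top2a was at 785 to 943 CPM in NPCs, against 1173, 1649 and 1366 CPM in ESCs. For these 5 members the NPC and ESC control libraries do not overlap, and for the other 5 they do. Such overlap was not counted over all genes. With total counts and no scaling factors, Bub1 alone of the 5 passed. Cdc20 had an adjusted p of 0.0620 without ESC control replicate 1, and Plk1 had 0.0518 without ESC control replicate 2.

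The other members did not pass the test in that comparison. Ccnb1 had a log2 fold change of -0.65 ± 0.25 and an adjusted p of 0.0504, at 131 to 209 CPM in NPCs and 199 to 295 CPM in ESCs. Without 1 of ESC control replicate 3, NPC control replicate 2, neuron control replicate 2 or neuron control replicate 4, Ccnb1 passed, with adjusted p between 0.0337 and 0.0358. Kif11 was at -0.38 ± 0.21, Cenpe at -0.45 ± 0.25 and Aurkb at -0.51 ± 0.38. Mki67 alone had a positive estimate, 0.36 ± 0.30 (adjusted p = 0.37), at 1249 to 1743 CPM in NPCs and 879 to 1470 CPM in ESCs. With total counts and no scaling factors Mki67 passed, at 0.60 (adjusted p = 0.037).

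In mutant cells, with fewer libraries per fit, fewer members passed. SEs of the members were 0.28 to 0.52 in deletion cells and 0.24 to 0.44 in duplication-deletion cells, against 0.19 to 0.38 in control cells. The counts of members passing therefore do not compare the size of the step between genotypes. None of 10 was called in deletion NPCs against deletion ESCs by edgeR (0 at unadjusted p under 0.05, and 2 at that level with DESeq2, of which 0 passed adjustment), where 13.2% of all genes were lower. Bub1, at -0.87 ± 0.41 (adjusted p = 0.14), had the lowest estimate there, and it passed when neuron deletion replicate 1 or 3 was left out of the shared fit (adjusted p = 0.0369 and 0.0297). In duplication-deletion NPCs against duplication-deletion ESCs 2 of 10 were lower, where 14.2% of all genes were lower. They were Bub1, which fell by 1.14 ± 0.25 (adjusted p = 0.0087), and Cdc20, which fell by 0.99 ± 0.24 (adjusted p = 0.012). With a term for the replicate number in this fit, neither passed (adjusted p = 0.12 and 0.13), and without NPC duplication-deletion replicate 2 there were 4, with Ccnb1 and Kif11 added (adjusted p = 0.0413 and 0.0432). Without ESC duplication-deletion replicate 1, Cdk1 was added (adjusted p = 0.0388).

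**Figure D2:**
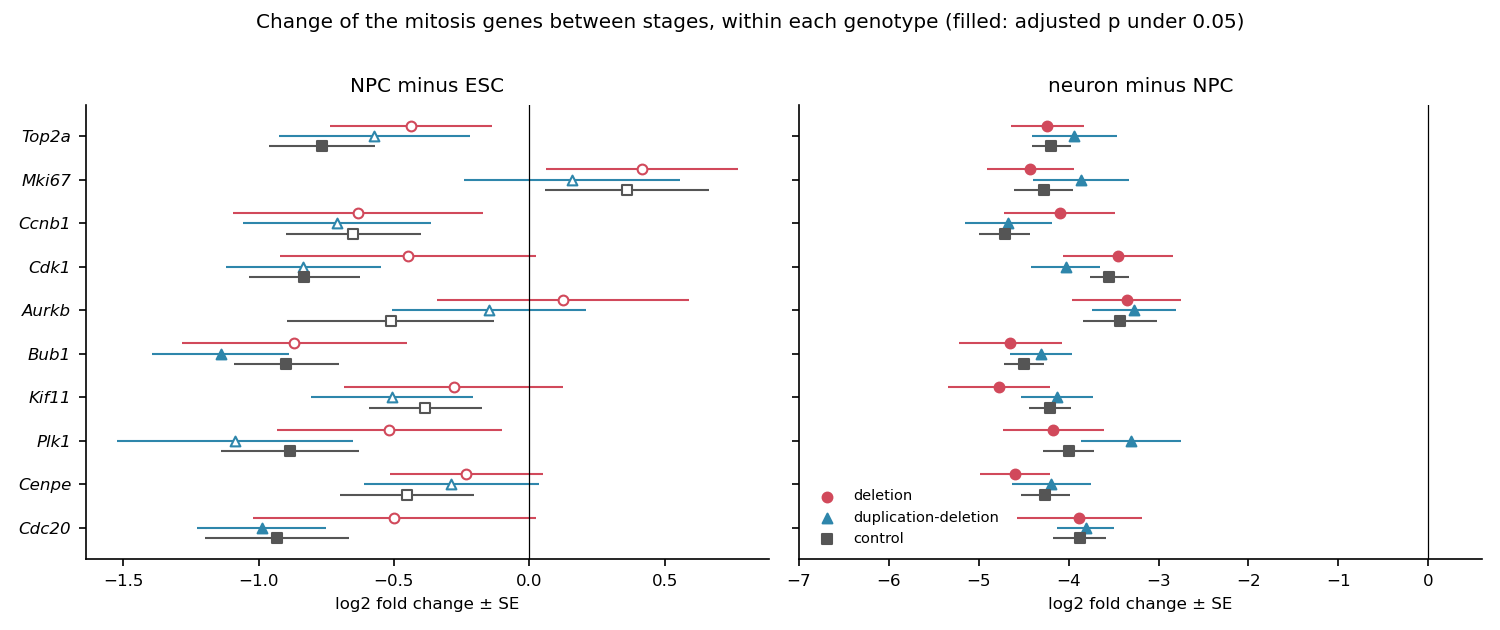
Log2 fold changes with SE (bars) of the 10 members, NPCs minus ESCs on the left and neurons minus NPCs on the right, on axes of different range, for deletion (circles), duplication-deletion (triangles) and control cells (squares). All 30 estimates for neurons lie below -3, while those for NPCs lie between -1.14 and 0.42.

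Whether a mutant genotype changed the size of these steps was tested directly in a joint fit of all 28 libraries. For the step from ESCs to NPCs no member differed between deletion and control cells (0.005% of all genes were called) or between duplication-deletion and control cells (0.005%). For the step from NPCs to neurons, none differed between deletion and control cells (0.005%) or between duplication-deletion and control cells (0%). Over these 40 tests of members, 0 had an unadjusted p under 0.05 with edgeR and 0 with DESeq2. The estimated differences ran from -0.53 to 0.72 on the log2 scale, with SEs of 0.33 to 0.63.

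The ratio of Mki67 to Top2a counts needs no scaling between libraries, and it was looked at after the levels were seen. It was 1.33, 1.74 and 2.43 in deletion NPCs, against 0.90, 1.00 and 1.16 in deletion ESCs. Duplication-deletion NPCs had 1.47, 1.80 and 1.89, against 0.89, 1.00 and 1.33 in duplication-deletion ESCs. Control NPCs had 1.52, 1.85, 1.86, 1.97 and 2.03, against 0.64, 0.89 and 1.01 in control ESCs. Within each genotype the NPC and ESC libraries did not overlap. Neuron libraries spread over 1.09 to 2.31, so that ratio did not set neurons apart from NPCs.

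No member was called between a mutant genotype and control cells at any stage. The share of all genes called was 0% for the deletion in ESCs, 0.00596% in NPCs and 0% in neurons. For the duplication-deletion it was 0% in ESCs, 0.0119% in NPCs and 0.039% in neurons. Between the deletion and the duplication-deletion, it was 0% in ESCs, 0.0238% in NPCs and 0.0335% in neurons, and no member was called. Over the 90 member tests of these 9 comparisons, 0 had an unadjusted p under 0.05 with edgeR and no replicate block, and 0 with DESeq2, and the lowest adjusted p of that edgeR fit was 0.71. The log2 estimates ran from -0.57 to 0.82 with SEs of 0.21 to 0.84.

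In ESCs the members' median log2 difference was 0.01 for the deletion and -0.01 for the duplication-deletion, each against control, and 5 of 10 estimates were above 0 in the deletion. Aurkb had the estimate farthest from 0 at this stage. It was at 15.9, 21.2 and 32.0 CPM in duplication-deletion ESCs and 19.8, 24.9 and 29.3 CPM in deletion ESCs, against 29.3, 30.9 and 42.0 CPM in control ESCs. Its log2 difference was -0.56 ± 0.28 in duplication-deletion cells and -0.40 ± 0.28 in deletion cells (adjusted p = 1.0 with edgeR for both). In deletion ESCs Cdc20 was slightly farther from 0 than Aurkb, at -0.42 ± 0.25. Deletion and control ESCs meet at 29.3 CPM of Aurkb. For Cdk1 the highest deletion library (107.5 CPM) is just above the lowest control library (107.3 CPM). The genotypes overlap for all other members in ESCs.

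Same-numbered ESC libraries deviated together, and a replicate block narrowed the errors without adding a call among the members. With it, 4 of 10 members had an unadjusted p under 0.05 in deletion against control ESCs with edgeR (Aurkb, Mki67, Cenpe and Cdc20), 1 in duplication-deletion against control ESCs (Aurkb) and 0 between the mutants. None passed adjustment, with lowest adjusted p of 0.36, 0.72 and 0.83. How many of all genes had an unadjusted p under 0.05 in the blocked fit was not counted, so these member counts have no background. Within same-numbered libraries Aurkb was lower in the mutant in 6 of 6 mutant-control pairs, and Mki67 was higher in 6 of 6. Cenpe was higher in 5 of 6 pairs and Top2a lower in 5 of 6. Ccnb1, Cdk1, Plk1 and Cdc20 were higher in 2 and lower in 4, and Bub1 and Kif11 were higher in 3 and lower in 3. Both mutants share the 3 control libraries, and such pairs were not counted over all genes. The blocked log2 difference of Aurkb was -0.40 ± 0.14 in deletion ESCs and -0.59 ± 0.14 in duplication-deletion ESCs (SE). That of Mki67 was 0.32 ± 0.12 in deletion ESCs and 0.21 ± 0.12 in duplication-deletion ESCs. Deletion replicate 3, at only 5578151 total counts, was the lowest deletion ESC library for Mki67, Ccnb1, Kif11, Plk1, Cenpe and Cdc20. It was the highest for Aurkb and in the middle for Top2a, Cdk1 and Bub1.

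In NPCs the members' median log2 difference was 0.14 for the deletion and -0.14 for the duplication-deletion. Top2a was at 1004, 1033 and 997 CPM in deletion NPCs, 1179, 760 and 542 CPM in duplication-deletion NPCs, and 943, 787, 785, 807 and 820 CPM in control NPCs. It was the only member whose deletion and control libraries did not overlap in NPCs, with a log2 difference of 0.30 ± 0.23 (adjusted p = 1.0 with edgeR). Separation of these groups was not counted over all genes, so it does not mark Top2a out. In the authors' deposited table, Top2a in NPCs with the deletion had a log2 fold change of 0.29, a p of 0.0485 and an adjusted p of 0.89. The authors' deposited table gave no member an adjusted p under 0.05 in any of its 6 comparisons of a mutant with control. For the deletion, 3 of its 14212 entries were under 0.05 in ESCs, 122 of 14449 in NPCs and 44 of 15764 in neurons. For the duplication-deletion, 5 of 13846 were under 0.05 in ESCs, 54 of 14600 in NPCs and 183 of 15908 in neurons. Duplication-deletion NPC replicate 2 was the highest of its group, and replicate 5 the lowest, for Top2a and Mki67, at 1179 and 542 CPM of Top2a and 2124 and 798 CPM of Mki67.

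In neurons the members' median log2 difference was 0.21 for the deletion and -0.07 for the duplication-deletion. Cdk1 was at 3.05 and 4.57 CPM in duplication-deletion neurons, below the 4.87 to 7.42 CPM of control neurons, with a log2 difference of -0.57 ± 0.55 (adjusted p = 0.83 with edgeR). Plk1 was at 2.83 and 4.17 CPM in duplication-deletion neurons, above the 2.08 to 2.80 CPM of control neurons, with a log2 difference of 0.46 ± 0.42 (adjusted p = 0.81 with edgeR). For the other 8 members these groups overlap, and deletion and control neurons overlap for all 10. How many of all genes separate between these small groups was not counted, so the 2 separations have no background.

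**Figure D3:**
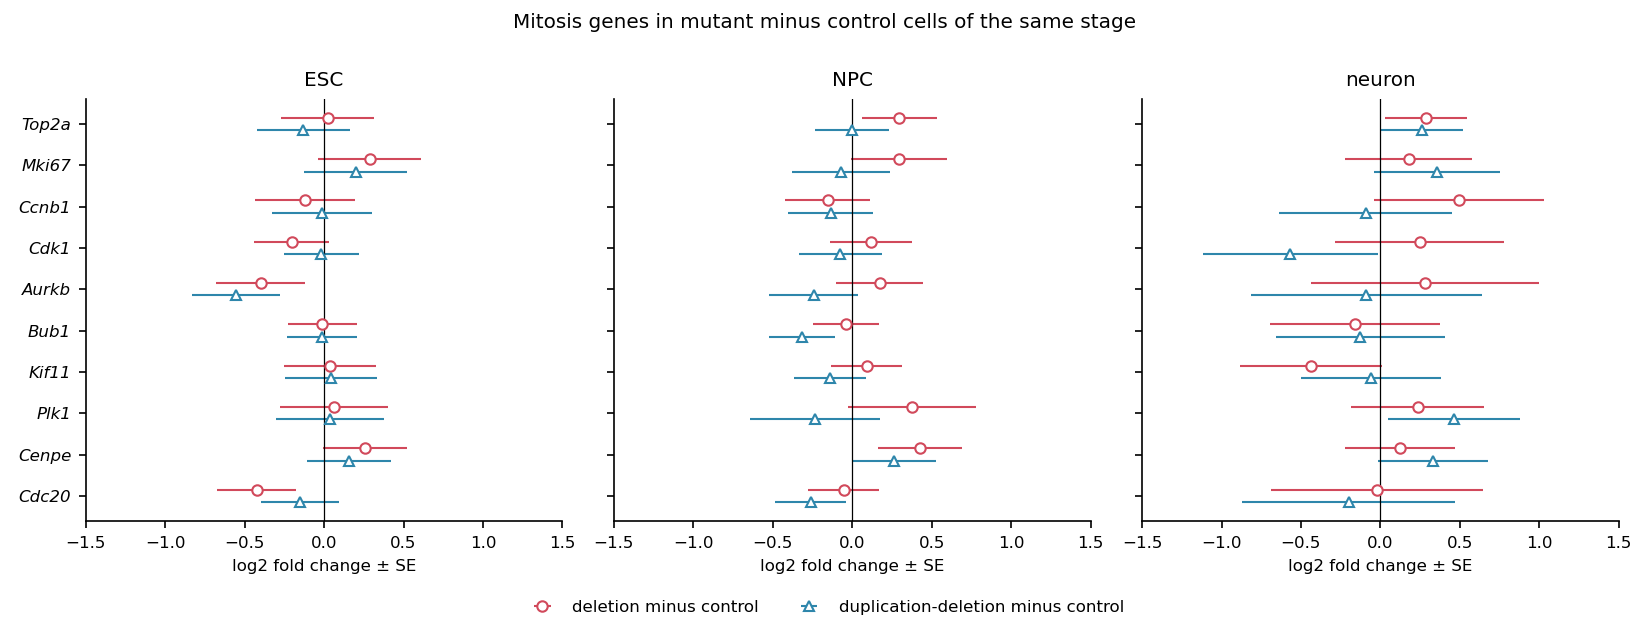
Log2 fold changes with SE (bars) of the 10 members in deletion cells (circles) and duplication-deletion cells (triangles), each minus control cells of the same stage. All estimates lie between -0.57 and 0.49, and open symbols mark that 0 of 60 passed the test.

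The pair of deletion neuron libraries stood far apart. Expressed as a percentage of the control neuron mean, the median member was at 58.6% in replicate 1 and 136% in replicate 3. Cdc20 was at 0.97 CPM in replicate 1 and 6.02 CPM in replicate 3, Cdk1 at 2.58 and 10.6 CPM, Bub1 at 1.51 and 5.57 CPM, Ccnb1 at 3.74 and 13.2 CPM, and Kif11 at 3.70 and 11.01 CPM. Replicate 3 was the highest and replicate 1 the lowest of all 8 neuron libraries for Cdc20, Cdk1, Bub1 and Ccnb1. Mki67 was ordered the other way, at 95.0 CPM in replicate 1 and 78.0 CPM in replicate 3, and Plk1 was at 3.42 and 2.46 CPM. Top2a (49.1 and 58.4 CPM) and Cenpe (8.66 and 10.3 CPM) differed by 1.19-fold and 1.18-fold. The libraries of this group differed by 6.23-fold in Cdc20 and by 4.12-fold in Cdk1.

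Across the 8 neuron libraries some members followed the replicate number, a pattern that was noticed in the values. Aurkb was at 2.58 to 4.07 CPM in the 4 libraries numbered 3 or 4, against 1.01 to 1.57 CPM in the 4 numbered 1 or 2. Ccnb1 was at 5.98 to 13.2 CPM, against 3.74 to 5.37 CPM, and Cdc20 was at 3.44 to 6.02 CPM, against 0.97 to 2.83 CPM. These 3 members did not overlap between the numbers and the other 7 did. How many of all genes separate by these numbers was not counted, so the split may not be particular to these members. The most abundant entry took 19.6% to 24.3% of counts in the libraries numbered 3 or 4, against 27.99% to 38.8% in those numbered 1 or 2. The Mki67 to Top2a ratio did not follow the number in every genotype. It was 1.34 in replicate 3 and 1.93 in replicate 1 of deletion neurons, 1.96 in replicate 4 and 1.72 in replicate 2 of duplication-deletion neurons, and 1.25 and 1.09 in replicates 3 and 4 and 2.26 and 2.31 in replicates 1 and 2 of control neurons. The labels do not say what the numbers mark, and their part in these values was not tested. With a term for these numbers in the neuron fit, 0 members were called in the deletion and 0 in the duplication-deletion, each against control.

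**Figure D4:**
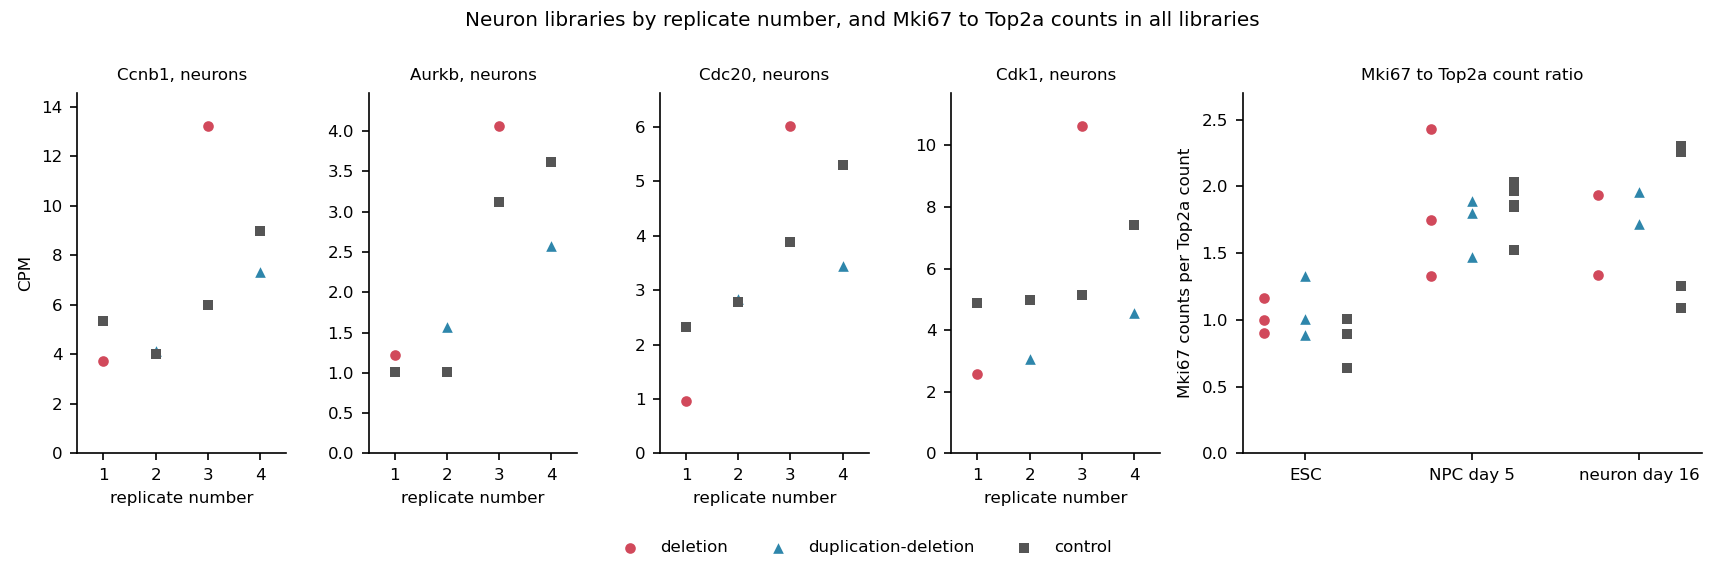
The first 4 panels plot CPM of Ccnb1, Aurkb, Cdc20 and Cdk1 in the 8 neuron libraries by replicate number. The last panel plots Mki67 counts per Top2a count in all 28 libraries by stage, with circles for deletion, triangles for duplication-deletion and squares for control; ESC libraries lie between 0.64 and 1.33 and NPC libraries between 1.33 and 2.43.

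The members varied together across stages, and less so within them. Over the 28 libraries the log2 CPM of each member had a Pearson r of 0.96 to 0.99 with the mean of the other 9, a description that rests on the gap between neurons and the rest. Within the 8 neuron libraries r was 0.84 for Ccnb1, 0.82 for Cdc20 and 0.81 for Cdk1, but -0.19 for Mki67 and -0.19 for Plk1. Within the 11 NPC libraries it was 0.86 for Kif11 and 0.85 for Top2a and 0.08 for Plk1. Within the 9 ESC libraries it was 0.93 for Ccnb1 and -0.35 for Aurkb. Each stage holds 3 genotypes and libraries of different depth, so the values only describe which members varied together.

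The genes whose log2 CPM over the 28 libraries was most like the members' mean were Kif2c (r = 0.996), a microtubule-destroying kinesin, Mcm6 (0.996), part of the replicative helicase, and the checkpoint kinase Ttk (0.996). They were followed by Kif23 (0.994), a kinesin of cytokinesis, the centrosomal kinase Nek2 (0.994), cyclin A2 (Ccna2, 0.993), Tmem20 (0.992) and Cks2 (0.992), a Cdk-binding subunit. Without the neuron libraries, over 20 libraries, r was 0.95 for Nek2, 0.94 for Kif2c and 0.93 for Ttk, and 0.81 for Tmem20.

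Lists of other cell cycle genes show how far the fall reached in control neurons relative to control NPCs, where 20.5% of all genes tested were lower. All 13 tested genes of mitotic entry were lower, among them Ccna2 (log2 fold change -4.20), the mitotic cyclin that precedes cyclin B, and Cks2 (-3.64) and Cks1b (-3.38), small partners of Cdk1. The 3 partners of Aurkb in the chromosomal passenger complex were lower: Cdca8 (-3.87), Incenp (-3.42) and Birc5 (-3.94). All 27 tested genes of the kinetochore and spindle checkpoint were lower, led by Ttk (-4.71), Bub1b (-4.37) and Spc24 (-4.01). Of 21 spindle motors and microtubule factors 20 were lower, led by Kif2c (-4.49), Kif22 (-4.13) and Kif23 (-3.94). All 8 condensin subunits were lower, with Ncaph at -3.75, Ncapg2 at -2.87 and Ncapd2 at -3.31. All 5 cytokinesis genes were lower, with Ect2 at -4.12, Cep55 at -4.39 and Anln at -3.25.

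All 14 DNA replication genes were lower, with a median of -3.92, led by Mcm2 (-4.32), Mcm3 (-4.82) and Cdc6 (-5.08), which load the replicative helicase or form it. Of 18 genes of the anaphase-promoting complex and its regulators 13 were lower, against 20.5% of all genes, and the median was -1.002. Ube2c, its ubiquitin-conjugating enzyme, Pttg1 (securin) and the inhibitor Fbxo5 had log2 fold changes of -4.34, -3.52 and -3.84, all called, while the subunit Anapc5 was at 0.03 ± 0.16 and the activator Fzr1 at 0.00 ± 0.22 (SE; neither called). Of 15 G1 cyclins, their kinases and CDK inhibitors 9 were lower, led by Ccnd1 (-4.58), Ccne1 (-3.63) and Cdk2 (-2.62). Of 19 transcription factors of cell cycle genes 15 were lower, led by Mybl2 (-4.44), Rbl1 (-2.67) and Foxm1 (-3.46), and Rbl2, a pocket protein of resting cells, was higher, at 1.28 ± 0.25 (adjusted p = 0.0011).

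Of 9 tested relatives 6 were lower in control neurons than in control NPCs, among them Bub1b (-4.37), Plk4 (-3.15), which copies centrioles, and Ccnb2 (-3.70). The share of all genes lower in that comparison was 20.5%. Cdk5, a kinase of the Cdk family that works in neurons rather than in the cell cycle, was higher, at 24.2 ± 4.17 CPM in neurons and 12.7 ± 2.46 CPM in NPCs (SD, n = 4 and 5; log2 fold change 0.96, adjusted p = 0.010). Top2b, the topoisomerase paralog used by cells that do not divide, was at 436 ± 176 CPM in neurons and 628 ± 100.1 CPM in NPCs, and was not called (log2 fold change -0.50 ± 0.30 SE). Top2b had been higher in control NPCs than in control ESCs, with a log2 fold change of 1.96 ± 0.35 (adjusted p = 0.00057). In deletion neurons relative to deletion NPCs, 13 of 13 genes of mitotic entry, 22 of 27 at the kinetochore and checkpoint, 19 of 21 spindle factors and 14 of 14 DNA replication genes were lower. Of all genes 9.39% were lower there. In duplication-deletion neurons relative to duplication-deletion NPCs the counts of these lists were 13 of 13, 24 of 28, 19 of 21 and 14 of 14. Of all genes 6.95% were lower in that comparison. Without a replicate block, edgeR called no listed gene in any of the 9 comparisons between genotypes or the 4 differences between stage steps.

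**Figure D5:**
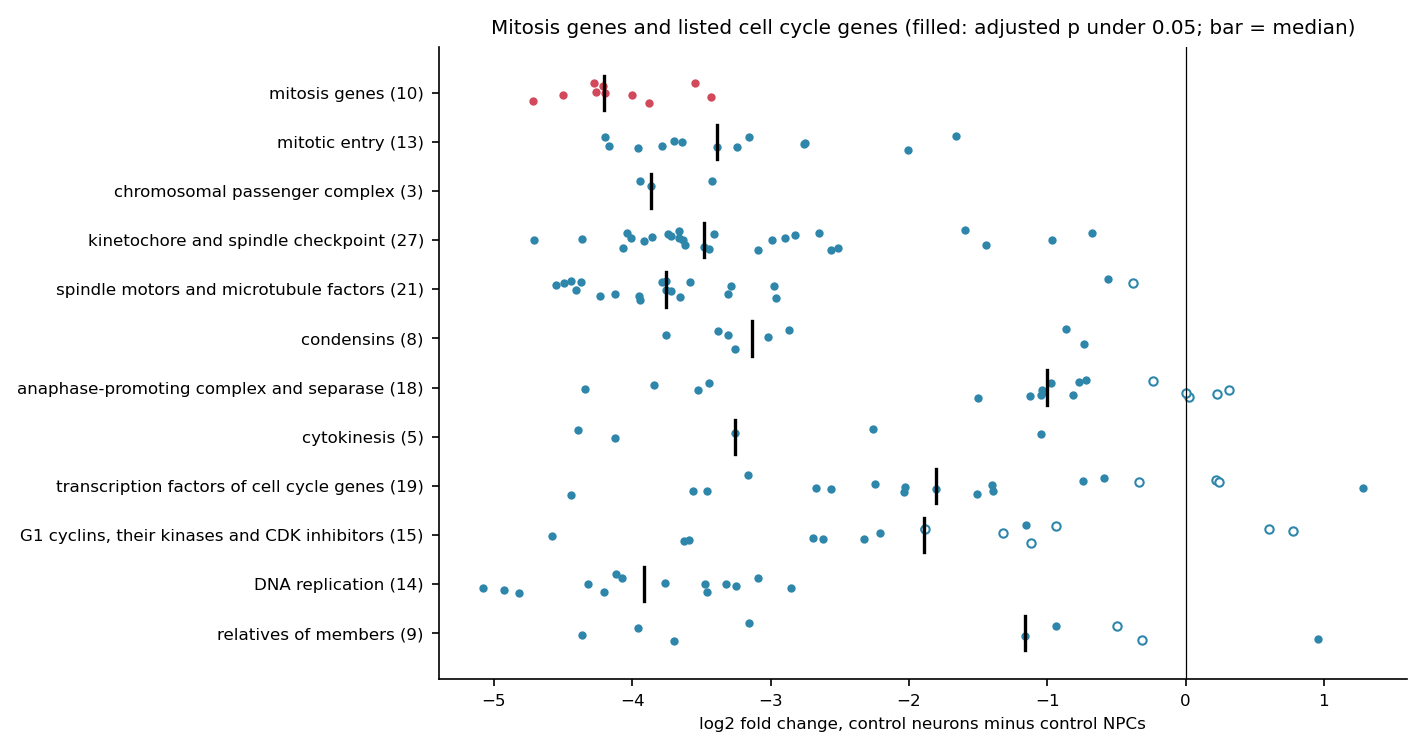
Each point is 1 gene, placed by its log2 fold change in control neurons minus control NPCs; filled points passed the test and black bars are list medians. The members (top row) have a median of -4.20, DNA replication genes -3.92 and the anaphase-promoting complex list -1.002.

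In control NPCs relative to control ESCs the lists gave smaller counts, to be read against the 20.5% of all genes that were lower. Lower genes were 5 of 13 in mitotic entry, 2 of 3 in the chromosomal passenger complex, 13 of 27 at the kinetochore and checkpoint, 9 of 21 among spindle factors, 2 of 8 condensins, 4 of 18 in the anaphase-promoting complex list, 4 of 5 in cytokinesis and 7 of 14 in DNA replication. The shares of the condensins and of the anaphase-promoting complex list are near that of all genes. Named by smallest p, these included Ccnf (-1.56) in mitotic entry, the checkpoint protein Bub1b (-1.18), the spindle factors Hmmr (-1.75) and Dlgap5 (-1.43), and Anln (-1.93) and Ect2 (-1.20) of cytokinesis. Among G1 cyclins, their kinases and CDK inhibitors 8 of 15 were higher, where 21% of all genes were higher, and 1 was lower. They were led by Ccnd2, a D-type cyclin, at 265 ± 115 CPM in NPCs and 9.53 ± 4.60 CPM in ESCs (SD, n = 5 and 3; log2 fold change 4.78, adjusted p = 1.2e-05). Ccne1, a cyclin of S phase entry, fell by 2.13 (adjusted p = 3.3e-05). Mybl2, a partner of the complex that switches on mitotic genes, fell by 3.54 (adjusted p = 2.9e-07) and was at 29.1 ± 7.90 CPM in NPCs and 335 ± 74.2 CPM in ESCs.

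Marker genes also changed in the step in which the members fell, in both directions, and their part in that fall was not tested. In control neurons relative to control NPCs all 8 neuron markers were higher, where 23.2% of all genes were higher, led by Mapt (log2 fold change 5.34), Stmn2 (2.55) and Syt1 (4.56). Of 5 astrocyte markers 4 were higher, led by Gfap (10.63), Aldh1l1 (5.06) and Aqp4 (5.03), and Gfap was at 73.9 ± 26.9 CPM in neurons (SD, n = 4). Of 8 neural progenitor markers 2 were lower, Nes (-3.64) and Vim (-1.09), and 2 were higher, Sox9 (1.58) and Fabp7 (1.14). Of 7 mesenchymal and neural crest markers 4 were higher, led by Pdgfra (3.50), Col1a1 (2.27) and Col3a1 (1.88), and of 3 endothelial markers tested Pecam1 (2.26) and Cdh5 (4.49) were higher. Of 5 pluripotent cell markers only Nanog was called, at 0 to 17 counts in control neuron libraries and 0 counts in each control NPC library.

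Kif22, the mitotic kinesin gene inside 7qF3, was lower in deletion ESCs than in the other ESC genotypes with DESeq2, and with edgeR only once same-numbered libraries were blocked. It was at 23.4, 26.8 and 28.8 CPM in deletion ESCs and 50.2, 57.9 and 86.5 CPM in duplication-deletion ESCs, against 74.0, 61.2 and 71.8 CPM in control ESCs. The deletion libraries lie below all others at that stage. The log2 difference between deletion and control ESCs was -1.33 ± 0.23 (SE), which did not pass with edgeR and no replicate block (adjusted p = 1.0). Same-numbered ESC libraries deviated together, and with a replicate block the adjusted p was 0.0055 (and 0.00185 with DESeq2 and no block). Against the duplication-deletion, deletion ESCs had a log2 difference of -1.25 ± 0.23 (edgeR adjusted p = 1.0 without the block and 0.0081 with it). DESeq2 with no block gave an adjusted p of 0.0023 for that comparison.

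In NPCs Kif22 was at 23.3, 24.9 and 42.3 CPM with the deletion and 51.1, 41.6 and 48.4 CPM with the duplication-deletion, against 38.4 to 52.5 CPM in control. Its log2 difference from control was -0.60 ± 0.22 in deletion NPCs and 0.04 ± 0.22 in duplication-deletion NPCs (adjusted p = 1.0 for both). Between deletion and duplication-deletion NPCs it was -0.64 ± 0.24. In neurons Kif22 was at 0.69 and 1.79 CPM with the deletion, 1.41 and 1.96 CPM with the duplication-deletion and 1.85 to 3.07 CPM in control. None of these neuron differences was called, with estimates of -1.03 ± 0.56, -0.62 ± 0.54 and -0.41 ± 0.62 for deletion against control, duplication-deletion against control and deletion against duplication-deletion.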

How the data were processed

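RNA was measured in 28 libraries of 9 groups; the 6 Hi-C samples are not analysed here. The deposited table holds estimated counts per gene, made by the authors; the submitters' processing notes name RSEM 1.3.0, STAR 2.6.0c and mm9; how strand was used in counting is not given in the sources used here. The authors' deposited table of comparisons gives log2 fold changes, p-values and adjusted p-values (DESeq2 1.22.2, per the same notes) and gene positions.

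Here the counts were rounded, 92 spike-in entries of 29968 were left out, and edgeR 4.0.16 in R 4.3.3 tested all remaining genes: robust quasi-likelihood fits, TMM scaling, filterByExpr by group, two-sided tests, Benjamini-Hochberg adjustment over all genes of a comparison, threshold 0.05. The 3 genotypes of a stage, the 3 stages of a genotype, or all 28 libraries for differences between genotypes in a stage step, were fitted together. Fold changes carry SEs, and mean CPM carry SDs over libraries. For log2 CPM the prior count was 2. An adjusted p printed in the text is edgeR's unless another tool is named. The stage fits and the fit of control cells were tried on simulated counts. The planted changes were larger than the members' genotype estimates, so that trial does not cover differences of their size.

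The members and all gene lists were chosen with earlier results of these data known. Named from each list were up to 3 genes per direction with the smallest p in control neurons against control NPCs, fewer in other comparisons, Kif22 in every genotype comparison, and the 8 genes most like the members' mean with mean CPM of at least 5. Anapc5, Fzr1 and Top2b were chosen after their values were seen. Overlap of libraries between groups was counted for the members and not for all genes.

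Same-numbered ESC libraries deviated together (9 pairs, r of 0.224 to 0.692, against -0.491 to 0.240 in 18 pairs of other numbers). In NPCs r was -0.031 to 0.481 in 7 same-numbered pairs and -0.381 to 0.225 in 32 others. In neurons it was 0.082 to 0.495 in 4 same-numbered pairs and -0.495 to 0.399 in 16 others. These NPC and neuron ranges overlap more, so this check does not settle whether numbers pair those libraries. In the fits of 1 genotype the ranges also overlapped. Of 33 replicate pairs, 0 were identical. Alternatives were DESeq2 1.42.0, RLE size factors, no filter, a replicate block, each library left out, the shallowest libraries left out, and, chosen after seeing the data, total counts with no scaling factors and a term for neuron replicate numbers.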

Additional observations from a re-analysis of the deposited data

Results flagged for a closer look

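Gap over range was taken for the highest and lowest library of each member in the control NPC and control neuron groups, on log2 CPM, and 2 of 20 groups exceeded the 95% critical value, where chance flags about 1 in 20. Top2a in control NPC replicate 1 stood above the other 4 libraries, with a gap over range of 0.764, at 943 CPM against 785 to 820 CPM. Cdk1 in control neuron replicate 4 stood above the other 3, with a gap over range of 0.869, at 7.42 CPM against 4.87 to 5.15 CPM.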

How the results depend on the processing

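Of 412 recomputed counts of called members 405 stayed within 1.5 times the reported count, and of 4120 recomputed fold changes of members 0 reversed a call, 11 lost it and 18 gained it. All 10 members stayed lower in neurons than in NPCs and ESCs under each alternative, except that leaving out libraries gave 9 to 10 for duplication-deletion neurons against NPCs. The exceptions to the reported counts concerned NPCs against ESCs. In control cells, total counts with no scaling factors gave 2 called members in place of 5, Bub1 lower and Mki67 higher (log2 fold change 0.60, adjusted p = 0.037), with a median over all genes of 0.19, against 0.01 with TMM. In duplication-deletion cells DESeq2 gave 4, total counts gave 1 and leaving out libraries gave 2 to 4, in place of 2. In deletion cells leaving out libraries gave 0 to 1. A replicate block gave 0 called members in duplication-deletion NPCs against ESCs and 6 in place of 5 in control NPCs against ESCs, and it changed no other count of called members; every count between genotypes stayed at 0. Whether replicate numbers pair libraries across stages is not settled, so the block in stage comparisons is a check and not the design. The causes of these shifts were not tested. Low counts limit the neuron values: members had 46 to 7202 counts in a neuron library, while these libraries held 41892753 to 56031950 counts in total.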
